A study of Mus musculus with 4 samples.

Results

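The mouse Hox genes were examined here in whole fetal testes, as the group of all genes named Hoxa, Hoxb, Hoxc or Hoxd with a paralogue number from 1 to 13. The genes were picked by symbol alone, and each was read from its probe with the highest mean signal. Of 39 symbols, 37 were matched to a probe, among 33390 distinct gene names on the array, and Hoxc11 and Hoxd8 were not analysed here. RNA came from whole gonads of male wild type embryos of the mouse line MCH at embryonic day 12.5, 13.5, 14.5 or 15.5 (E12.5 to E15.5). All 4 stages share sex, genotype and line, and no agent or allele is named in the labels. Each stage had 2 one-colour Agilent arrays, which the series text describes as biological duplicates; how many embryos went into an array is not given in the sources used here. The design asks how expression in the fetal testis moves from one stage to the next.

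Hox genes encode homeodomain transcription factors that lie in 4 clusters, and the order of genes along a cluster follows the order in which they act along the body from head to tail. Genes with the same number in different clusters are paralogues: low numbers act near the head end, high numbers near the tail, limb tips and urogenital tract. In the urogenital system, genes with high numbers pattern the ducts and the kidney, and the gonad forms beside the mesonephros, an embryonic kidney whose duct becomes the male tract.

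Within the Hoxd cluster near neighbours were called in opposite directions, Hoxd1 higher and Hoxd4 lower, and Hoxd3 is the gene numbered between them. For that reason their promoters are shown: 250 bases upstream of each RefSeq start on GRCm38.p6, 5′ to 3′, in lower case, with capitals marking matches to any of the motifs that were searched. Hoxd1 is chr2:74762730-74762979 on the plus strand, Hoxd3 is chr2:74711743-74711992 on the plus strand, and Hoxd4 is chr2:74721728-74721977 on the plus strand.
Hoxd1: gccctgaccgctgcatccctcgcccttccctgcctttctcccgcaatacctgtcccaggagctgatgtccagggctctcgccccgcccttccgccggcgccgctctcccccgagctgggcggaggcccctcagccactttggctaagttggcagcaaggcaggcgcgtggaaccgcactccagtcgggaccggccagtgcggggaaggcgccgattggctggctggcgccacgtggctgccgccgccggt
Hoxd3: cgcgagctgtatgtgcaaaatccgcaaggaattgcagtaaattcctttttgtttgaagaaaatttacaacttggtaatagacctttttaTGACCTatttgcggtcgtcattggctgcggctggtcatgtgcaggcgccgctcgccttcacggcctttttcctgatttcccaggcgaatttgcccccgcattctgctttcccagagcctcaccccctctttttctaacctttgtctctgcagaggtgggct
Hoxd4: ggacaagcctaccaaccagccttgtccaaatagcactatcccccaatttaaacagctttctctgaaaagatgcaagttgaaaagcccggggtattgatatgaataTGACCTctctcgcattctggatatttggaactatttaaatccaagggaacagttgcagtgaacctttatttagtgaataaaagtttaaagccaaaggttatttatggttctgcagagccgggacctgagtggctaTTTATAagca
The motifs, read on both strands, were AGGTCA, bound by retinoic acid receptors, TGATNNAT, bound by Hox proteins with Pbx partners, and the TATA box TATAAA. The AGGTCA motif had a match in 5 of 23 promoters of the 21 Hox genes in the RefSeq table and in 14% of all 32851 promoters. The Hox and Pbx motif had one in 4 of 23 against 7.68%, and the TATA box in 4 of 23 against 12.4%. Hoxd4 held TGACCT, the AGGTCA motif on the other strand, from 145 to 140 bases before the start, and TTTATA, the TATA box on the other strand, from 10 to 5 bases before it. Hoxd3 held TGACCT from 161 to 156 bases before its start, and Hoxd1 held none of these letters in the window. The Hoxd1 window had 24 CpG dinucleotides, Hoxd3 had 12 and Hoxd4 had 3, beside a median of 13 over the Hox promoters and 6 over all promoters. A match describes the letters only and was not tested as a binding site.

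Values below are log2 of the processed spot signal minus the array's own 75th percentile, so 0 is the 75th percentile; they compare one probe between arrays, and levels of different probes were not compared. A probe counts as detected where the scanner software flags it well above background. Between 60.3% and 69.8% of probes were detected per array, with the lowest share on E15.5 array 2. Slide 1 held the first array of E12.5 and of E13.5, slide 2 held the second array of both, and slide 3 held every E14.5 and E15.5 array, in a scan session of its own. The steps from E12.5 to E13.5 and from E14.5 to E15.5 were thus measured within slides, whereas between E13.5 and E14.5, and over the whole span, slide and stage cannot be told apart. Markers of the labelled tissue were present: 8 of 8 Sertoli cell genes, 7 of 8 germ cell genes and 5 of 6 Leydig cell genes were detected on all 8 arrays. Of all genes with a symbol, 72.2% were, so these counts alone do not identify the tissue.

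Most of the Hox genes gave signal in the fetal testis, and the genes with the highest numbers did not. Of 37 genes, 22 were detected on all 8 arrays (59.5%), 9 on some (24.3%) and 6 on none (16.2%); over the 16357 genes with a symbol the shares were 72.2%, 16.5% and 11.3%. The 6 genes not well above background on any array were Hoxa13, Hoxb8, Hoxc12, Hoxc13, Hoxd12 and Hoxd13. By number, 7 of 12 genes of paralogue groups 1 to 4, 7 of 10 of groups 5 to 8 and 8 of 9 of groups 9 to 11 were detected on all arrays, against 0 of 6 of groups 12 and 13. Among those 6, Hoxb13 alone was detected at all, on 5 arrays.

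By cluster, 6 of 11 Hoxa genes, 6 of 10 Hoxb genes, 5 of 8 Hoxc genes and 5 of 8 Hoxd genes were detected on all arrays. Among the genes detected on part of the arrays were Hoxa2 (7 arrays), Hoxb4 and Hoxd1 (6 each), Hoxb13 (5), Hoxa11 (4), Hoxa6 and Hoxc8 (3 each) and Hoxb1 (1). Per array, 24 to 29 Hox genes were detected, with the 24 on E15.5 array 2. No Hox value was saturated, and a probe that is not well above background has only an upper bound on its level, not a level of 0.

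**Figure D1:**
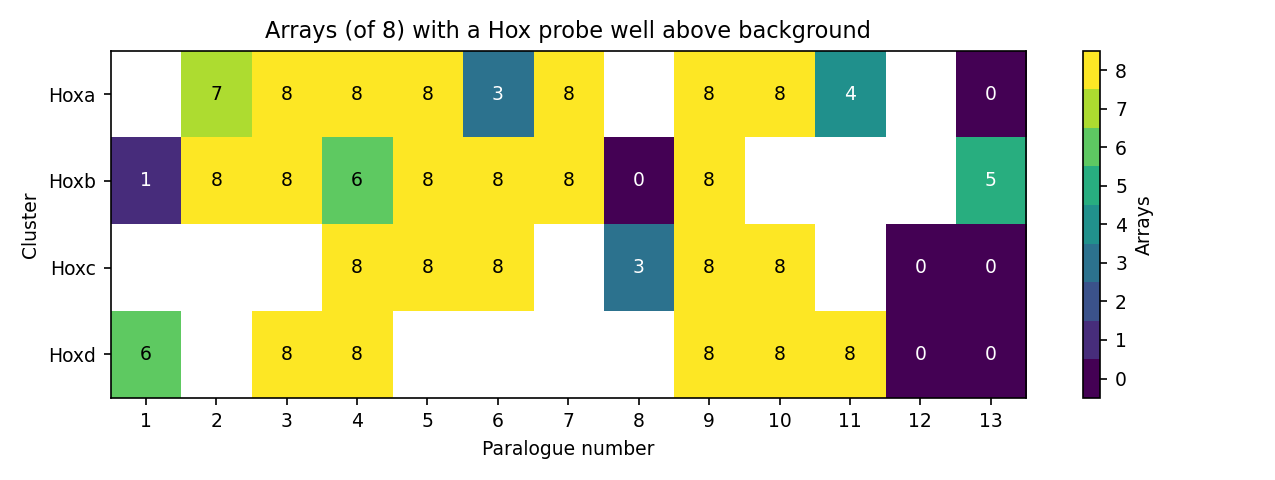
Number of arrays, of 8, on which a Hox probe was well above background, by cluster (rows) and paralogue number (columns); white cells are numbers with no gene in that cluster, no matched probe or no value shown. Cells of 8 fill most of numbers 3 to 10, and numbers 12 and 13 hold 0 except for Hoxb13 with 5.

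Testing needed a probe detected on both arrays of some stage, which kept 29 of the 37 genes; Hoxb1 and Hoxc8 dropped out beside the 6 detected nowhere. Limma gave 1 mean per stage over all 8 arrays, p-values were adjusted with Benjamini-Hochberg over 21986 genes, and a call is an adjusted p below 0.05. Differences are later minus earlier stage, in log2, with the standard error (SE), on 2 arrays per stage.

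Few Hox genes passed the test. From E12.5 to E13.5, 1 of 29 rose, Hoxd1, where 2.68% of all genes tested rose, and 0 of 29 fell, where 1.3% of all genes fell; at an unadjusted p under 0.05 in limma there were 5 Hox genes of 29 and 3762 of all 21986. From E13.5 to E14.5, 2 of 29 rose, Hoxc10 and Hoxd1, beside 6.44% of all genes, and 3 of 29 fell, Hoxb9, Hoxc4 and Hoxd4, beside 6.04%. From E14.5 to E15.5, 0 of 29 were called, beside 0.655% of all genes in either direction, and 3 of 29 had an unadjusted p under 0.05 in limma, as did 2094 of all 21986.

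Over the whole span from E12.5 to E15.5, 2 of 29 rose, Hoxa4 and Hoxd1, beside 17.6% of all genes, and 5 of 29 fell, Hoxa2, Hoxa6, Hoxb9, Hoxc4 and Hoxd4, beside 17.4%. This split changed with a normexp background correction, under which 1 Hox gene was higher and 9 lower. Of all genes, 3402 were then higher and 5841 lower. The normexp setting adds an offset of 50 to each signal, which shrinks differences between dim spots. A limma F test over the 4 stages called 7 of 29, beside 31.1% of all genes: Hoxa4, Hoxa6, Hoxb9, Hoxc4, Hoxc10, Hoxd1 and Hoxd4. Counted in either direction, the shares of Hox genes called in the 4 comparisons were 3.45%, 17.2%, 0% and 24.1%, beside 3.98%, 12.5%, 0.655% and 35% of all genes. In whole organs, fewer cells of a type and less RNA per cell cannot be told apart.

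**Figure D2:**
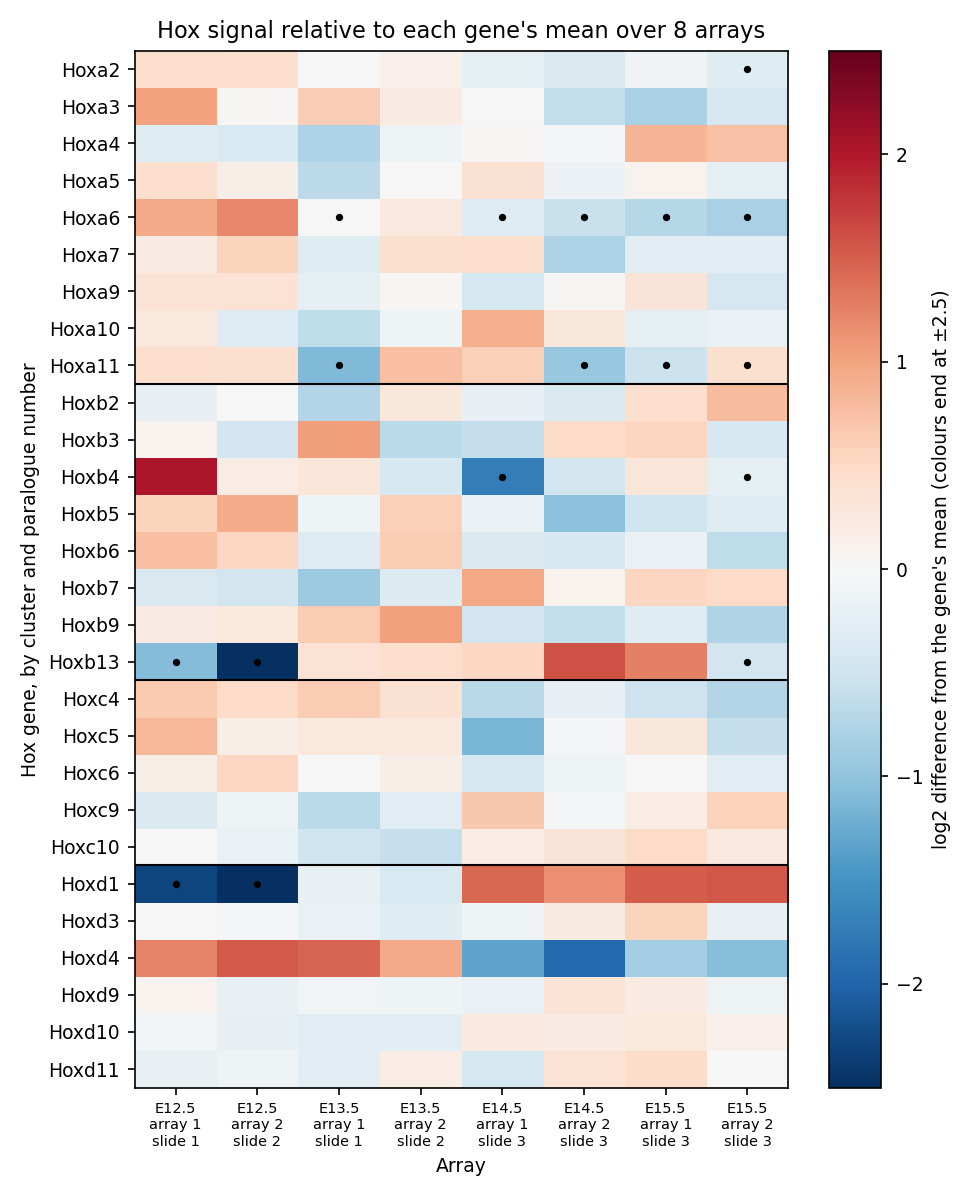
Of the 29 tested Hox genes, 28 (rows, by cluster and number) on each of the 8 arrays (columns), each coloured by its log2 value minus its own mean over the arrays; colours end at 2.5 in either direction and dots mark spots not well above background. Hoxd1 runs from low at E12.5 to high at E14.5 and E15.5, Hoxd4 runs the other way, and most other rows are pale.

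Hoxd1, the most anterior gene of its cluster, was called higher in 3 of the 4 comparisons. Its values were -7.18 and -7.67 at E12.5, -5.06 and -5.26 at E13.5, -3.45 and -3.74 at E14.5, and -3.37 and -3.32 at E15.5. Each stage lay above the one before it with no overlap, both E12.5 arrays were not well above background, and the other 6 were. The processed signal, in the scanner's linear units, was 3.95 to 7.23 at E12.5, 23.4 to 31.6 at E13.5, 111 to 139 at E14.5 and 149 to 172 at E15.5.

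From E12.5 to E13.5 Hoxd1 rose by 2.27 ± 0.23 (SE; adjusted p = 0.00534), by 2.13 within slide 1 and 2.41 within slide 2. Because E12.5 was not well above background, the fold is a bound: the mean of the later stage over the mean, per array, of the lowest detected signal or the probe's own where that was higher, which gave at least 1.75-fold higher. Such a bound, here and below, holds for the processed signal as scaled here and carries no sampling error. Hoxd1 rose again by 1.56 ± 0.23 from E13.5 to E14.5 (adjusted p = 0.0141), across slides. The step from E14.5 to E15.5 was 0.25 ± 0.23 (adjusted p = 0.931). Over the whole span the difference was 4.08 ± 0.23 (adjusted p = 0.000151), at least 6.15-fold higher.

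The early step of Hoxd1 was 0.29 where the background was corrected with a normexp model (adjusted p = 0.553). The normexp offset of 50 is above every Hoxd1 processed signal at E12.5 and E13.5, so a small size is built into that setting. Adjusted p was 0.00301 to 0.553 over the settings tried. In a fit of the E12.5 and E13.5 arrays alone the step had the size above with an adjusted p of 0.0593. It was called in all 8 fits that left out 1 array. The step to E14.5 was 0.43 under normexp (adjusted p = 0.121) and lost its call without either of the E13.5 arrays (1.66 without the first and 1.46 without the second, adjusted p = 0.0594 and 0.0818) and without E14.5 array 1 (1.41, adjusted p = 0.0682). The rise over the whole span was called in all 8 settings, at 0.89 (under normexp) to 4.21.

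Hoxd4, which specifies hindbrain and neck identity and is known as a retinoic acid target, went the other way. Its values were 1.52 and 1.82 at E12.5, 1.74 and 1.23 at E13.5, -1.03 and -1.65 at E14.5, and -0.57 and -0.77 at E15.5. All 4 arrays of the later stages were below all 4 arrays of the earlier ones, with no overlap, and the first pair of stages overlapped. It was detected on every array.

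From E12.5 to E13.5 the difference in Hoxd4 was -0.19 ± 0.29 (adjusted p = 0.858). From E13.5 to E14.5 it fell by 2.83 ± 0.29 (adjusted p = 0.00682), and from E12.5 to E15.5 by 2.34 ± 0.29 (adjusted p = 0.0019). Both falls were called in 9 of 9 settings and in all 8 fits that left out 1 array; both run across slides. Within slide 3, E15.5 stood 0.67 ± 0.29 above E14.5 (adjusted p = 0.553).

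Hoxd3 showed neither pattern; its annotated span in RefSeq covers Hoxd4, and whether either probe also reads transcripts of the other gene was not tested. Its values were -3.21 and -3.24 at E12.5, -3.38 and -3.51 at E13.5, -3.32 and -2.99 at E14.5, and -2.66 and -3.39 at E15.5. The first and last stages overlapped, and the difference over the span was 0.20 ± 0.28 (adjusted p = 0.597). Farther along the cluster, Hoxd9, Hoxd10 and Hoxd11 differed over the span by 0.09 ± 0.24, 0.34 ± 0.17 and 0.39 ± 0.32, and none of these passed the test (adjusted p = 0.808, 0.165 and 0.38).

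Among the other paralogues of number 4, Hoxc4 was also called lower. Hoxc4, a gene of the neck and upper trunk, read -2.18 and -2.35 at E12.5, -2.21 and -2.46 at E13.5, -3.52 and -3.05 at E14.5, and -3.35 and -3.57 at E15.5. Its later stages lay below its earlier ones with no overlap, as for Hoxd4. It fell by 0.95 ± 0.23 from E13.5 to E14.5 (adjusted p = 0.0457) and by 1.2 ± 0.23 from E12.5 to E15.5 (adjusted p = 0.00948).

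The fall of Hoxc4 over the whole span was called in 9 of 9 settings, and among left-out arrays lost its call without E15.5 array 2 (-1.08, adjusted p = 0.0669). The step to E14.5 held in 4 of 9 settings and with 1 of 8 arrays left out, the second of E14.5, with adjusted p between 0.0198 and 0.176 and changes between -1.19 and -0.71. Hoxb4 was detected on 6 arrays and differed over the span by -1.08 ± 0.69 (adjusted p = 0.26). Its highest value, -3.08, was on E12.5 array 1 and its lowest, -6.83, on E14.5 array 1, and its E12.5 arrays, at -3.08 and -4.93, lay far apart.

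Hoxa4 has 2 probes, which did not give the same picture. The probe with the higher mean, detected on all 8 arrays, read -4.60 and -4.68 at E12.5, -5.07 and -4.41 at E13.5, -4.28 and -4.36 at E14.5, and -3.45 and -3.57 at E15.5. The last stage was above all others on this probe, and it rose by 1.13 ± 0.25 over the span (adjusted p = 0.0143). The second probe, detected on 3 arrays, all at E12.5 or E13.5, read -4.53 and -5.61 at E12.5, -5.15 and -5.43 at E13.5, -7.90 and -7.11 at E14.5, and -6.79 and -7.07 at E15.5.

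On the second Hoxa4 probe no array of E14.5 or E15.5 was well above background, and the measured difference over the span was -1.86. The mean of both probes differed by -0.36 (adjusted p = 0.297), so no direction is given here for Hoxa4 as a gene. The call of the first probe was also lost under normexp (0.35, adjusted p = 0.149) and without either E12.5 or either E15.5 array (1.07 to 1.2, adjusted p = 0.0518 to 0.0705).

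**Figure D3:**
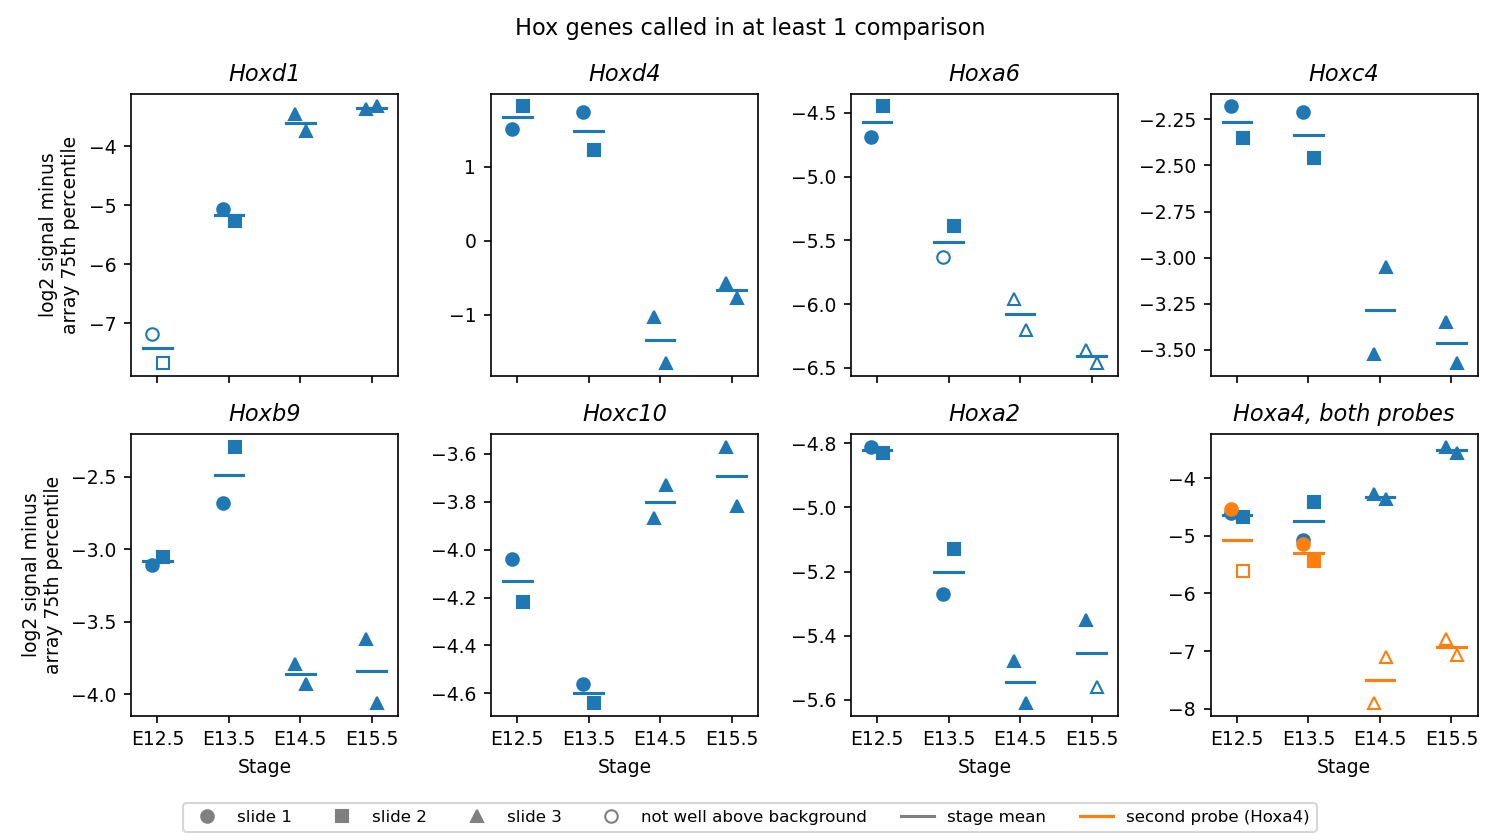
Log2 signal minus the array's 75th percentile (vertical axis, a scale of its own in each panel) by stage for the 8 Hox genes called in at least 1 comparison; marker shape gives the slide, open markers are not well above background, bars are stage means and orange is the second Hoxa4 probe. Hoxd1 climbs from -7.67 to -3.32, Hoxd4 drops between E13.5 and E14.5, and the 2 Hoxa4 probes separate at E14.5 and E15.5.

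Among the remaining anterior genes, Hoxa2, which patterns the hindbrain and the second pharyngeal arch, was the only one called. It read -4.81 and -4.83 at E12.5, -5.27 and -5.13 at E13.5, -5.48 and -5.61 at E14.5, and -5.35 and -5.56 at E15.5, where the second array was not well above background. Both E12.5 arrays were above all others. Hoxa2 fell by 0.64 ± 0.18 over the span (adjusted p = 0.0328), called in 4 of 8 settings and with 2 of 8 arrays left out, those of E14.5 (adjusted p = 0.0172 to 0.181; -0.74 to -0.52).

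Hoxa3, needed for the thymus and parathyroid, read -1.70 and -2.68 at E12.5 and -3.51 and -3.12 at E15.5, a difference of -1.13 ± 0.39 that missed the threshold (adjusted p = 0.0623). This difference was called with arrays scaled to their medians, with quantile normalization and under normexp. The second Hoxa3 probe was detected on no E12.5 array and on 1 E15.5 array. Its measured difference over the span was 1.3, opposite in sign to the first probe. With so few spots well above background it gives no size to set beside the first probe. Hoxb2 and Hoxb3, genes of the hindbrain, differed by 0.70 ± 0.34 and 0.27 ± 0.66 over the span, and neither passed the test (adjusted p = 0.158 and 0.777).

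In the middle of the clusters, among genes of the trunk, 1 gene was called. Hoxa6 read -4.69 and -4.45 at E12.5, -5.63 and -5.39 at E13.5, -5.96 and -6.20 at E14.5, and -6.36 and -6.46 at E15.5. Both E12.5 arrays were above all others, and beside them only E13.5 array 2 was well above background. Its fall over the span was 1.84 ± 0.20 (adjusted p = 0.00116), at least 2.04-fold lower, and was called in all 8 settings (-0.94 under normexp) and all 8 fits that left out 1 array.

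The early step of Hoxa6 was -0.94 ± 0.20 (adjusted p = 0.057) and came out at -0.94 on both slides. With the slide as a replicate block it was -0.94 ± 0.17 and passed (adjusted p = 0.0462), which made 2 of 29 Hox genes called in that comparison. From E13.5 to E14.5 Hoxa6 differed by -0.57 ± 0.20 (adjusted p = 0.104).

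Hoxb5 and Hoxb6, neighbours in the Hoxb cluster, came close to the threshold over the span. Hoxb5 read -3.94 and -3.58 at E12.5 and -5.01 and -4.81 at E15.5, a difference of -1.15 ± 0.37 (adjusted p = 0.0507). Hoxb6 read -2.38 and -2.61 at E12.5 and -3.30 and -3.77 at E15.5, a difference of -1.04 ± 0.34 (adjusted p = 0.0536). Neither pair of stages overlapped. Both differences were called under normexp, with only probes detected on all arrays, and in a fit of the E12.5 and E15.5 arrays alone.

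Hoxb7, the next gene along, differed from its neighbours in sign. It read -1.19 and -1.29 at E12.5, -1.74 and -1.17 at E13.5, 0.14 and -0.73 at E14.5, and -0.28 and -0.35 at E15.5. All slide 3 arrays were above all others, and the difference of 0.93 ± 0.33 over the span missed the threshold (adjusted p = 0.0706). It was called with the 75th percentile taken over probes detected on all arrays and in a fit of the E12.5 and E15.5 arrays alone. A test of Hoxb7 against Hoxb6 was not made.

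Hoxa5, Hoxa7, Hoxc5 and Hoxc6 differed over the span by -0.36 ± 0.31, -0.64 ± 0.43, -0.64 ± 0.46 and -0.47 ± 0.22, with adjusted p of 0.396, 0.284, 0.316 and 0.145. Of number 8, Hoxb8 was detected on no array, and Hoxc8 on 1 array each of E13.5, E14.5 and E15.5. Among the 7 tested genes of numbers 5 to 8 that were detected on all arrays, none was called in the fit of all 8 arrays described above. Of these 7, 6 were lower at E15.5 than at E12.5, beside 52% lower over all genes, with a median difference of -0.64. The same median was 0.20 for 7 genes of numbers 1 to 4, 0.21 for 8 genes of numbers 9 to 13, and -0.04 over the 17886 genes detected on all arrays. The 0.20 counts Hoxa4 on its first probe, at 1.13, and its sign depends on that choice. The second Hoxa4 probe differed by -1.86 and the mean of both by -0.36. These medians are descriptions of the genes that had signal throughout, and they were not tested.

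The posterior genes, which act in the lower trunk, limbs and urogenital tract, held calls in Hoxb9 and Hoxc10. Hoxb9 read -3.11 and -3.05 at E12.5, -2.68 and -2.29 at E13.5, -3.79 and -3.93 at E14.5, and -3.62 and -4.06 at E15.5. E13.5 was the highest stage on both slides, and slide 3 arrays were below all others. The rise to E13.5 of 0.59 ± 0.23 did not pass the test (adjusted p = 0.252).

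Hoxb9 then fell by 1.38 ± 0.23 from E13.5 to E14.5 (adjusted p = 0.0187) and by 0.76 ± 0.23 over the span (adjusted p = 0.0428). The first fall was called in 7 of 9 settings and lost its call without any of the E13.5 or E14.5 arrays (-1.57 to -1.18, adjusted p up to 0.0982). The second was called in 4 of 9 settings and with 0 of 8 arrays left out (-0.98 to -0.54, adjusted p = 0.0516 to 0.225).

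Hoxc10 read -4.04 and -4.22 at E12.5, -4.56 and -4.64 at E13.5, -3.87 and -3.73 at E14.5, and -3.57 and -3.82 at E15.5. E13.5 was its lowest stage, with no overlap with any other. It rose by 0.80 ± 0.19 from E13.5 to E14.5 (adjusted p = 0.0412), and over the span differed by 0.43 ± 0.19 (adjusted p = 0.116).

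The call for Hoxc10 was lost with any 1 of the 8 arrays left out (0.72 to 0.87, adjusted p = 0.0662 to 0.171), and under normexp the change was 0.12 (adjusted p = 0.609; 0.0318 to 0.609 over the settings). Its second probe was detected on no E13.5 or E14.5 array, so it gives no direction for this step. The other paralogues of number 10, which pattern the uterus and the lower limb, moved by 0.97 ± 0.32 for Hoxa10 (adjusted p = 0.0948) and 0.50 ± 0.17 for Hoxd10 (adjusted p = 0.1) in the same comparison, and neither passed.

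Hoxb13, known from the prostate and the tail, was the only detected gene of numbers 12 and 13. It read -6.13 and -7.67 at E12.5, -4.67 and -4.60 at E13.5, -4.52 and -3.44 at E14.5, and -3.78 and -5.50 at E15.5. Both E12.5 arrays and E15.5 array 2 were not well above background, and the E15.5 pair spanned the E13.5 and E14.5 means. Its differences of 2.26 ± 0.72 from E12.5 to E13.5 (adjusted p = 0.167) and 2.25 ± 0.72 over the span (adjusted p = 0.0516, with 1 of the E15.5 arrays detected) did not pass. The difference over the span was called with arrays scaled to their medians and with quantile normalization.

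Hoxa9, Hoxc9, Hoxa11 and Hoxd11 did not pass in any comparison either. Hoxc9 read 0.44 and 0.69 at E12.5 and 1 and 1.39 at E15.5, a difference of 0.63 ± 0.30 (adjusted p = 0.152). Hoxd9 read 1.64 and 1.36 at E12.5 and 1.75 and 1.42 at E15.5, which overlap; its second probe, also detected on all 8 arrays, differed over the span by -0.82, against 0.09 on the first.

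**Figure D4:**
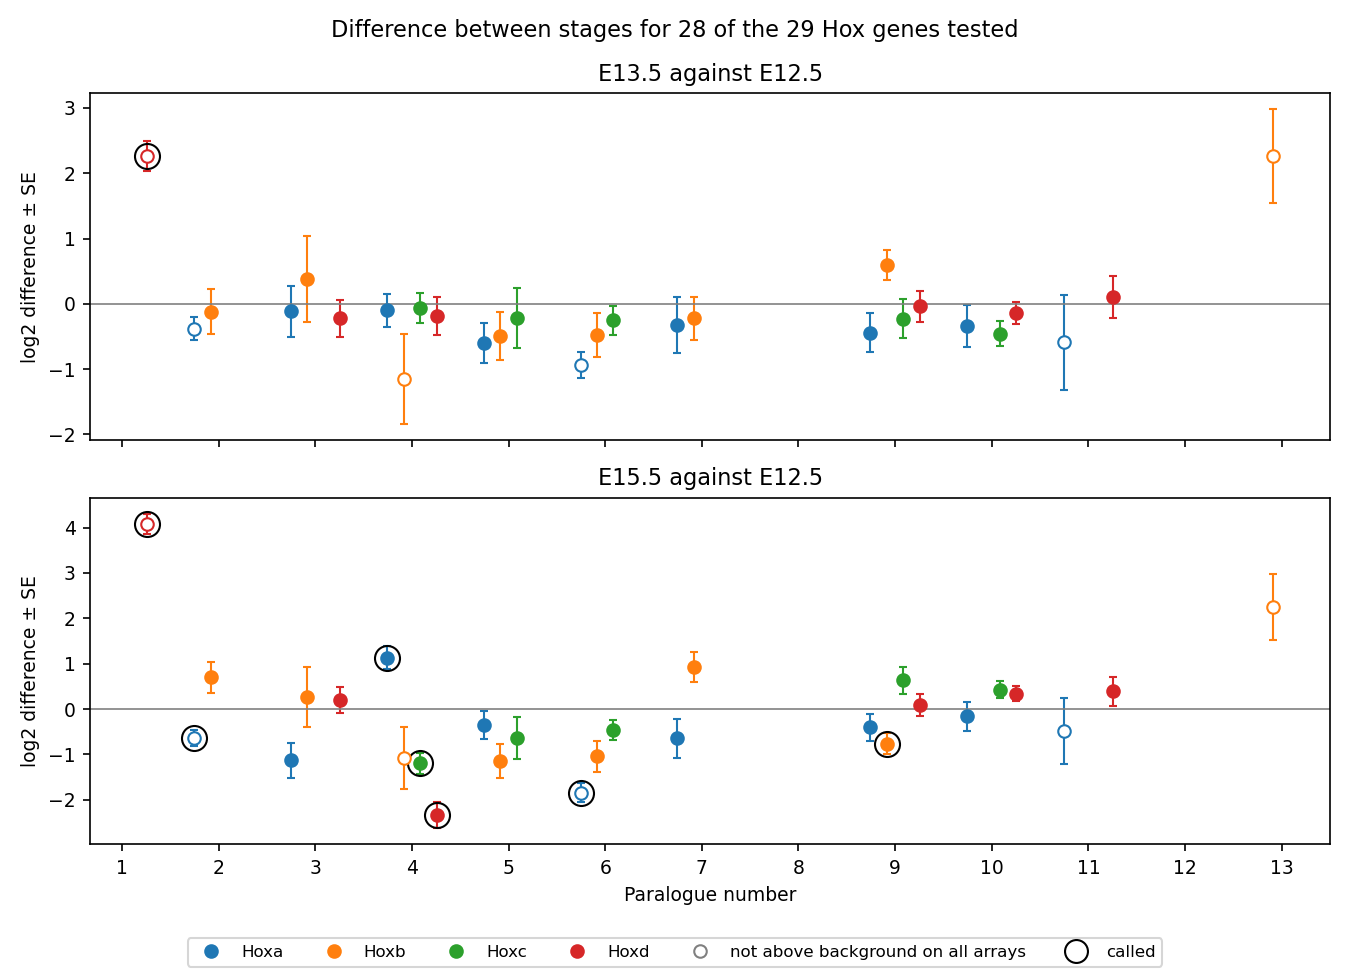
Log2 difference ± SE for 28 of the 29 tested Hox genes from E12.5 to E13.5 (top) and from E12.5 to E15.5 (bottom) by paralogue number, coloured by cluster; open markers were not detected on all 8 arrays and ringed ones were called. Hoxd1 is ringed in both, at 2.27 and 4.08, and 5 of the 7 ringed genes in the lower panel are below 0.

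Taken over the 22 Hox genes detected on all arrays, small differences from E12.5 to E13.5 leaned one way on slide 1 and hardly on slide 2. From E12.5 to E13.5, 19 of 22 were lower, with a median of -0.22, beside 54.4% lower and a median of -0.04 over the 17886 genes detected on all arrays. On slide 1, 19 of 22 were lower, with a median of -0.43, beside 9986 of the 17886 genes, with a median of -0.05. On slide 2, 12 of 22 were lower, with a median of -0.09. That is near all genes on slide 2, where 9321 of 17886 were lower, with a median of -0.02. Under the other scalings and normexp the median was -0.21 to -0.13, with 17 to 20 lower.

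In the later comparisons the same 22 genes were spread on both sides. From E13.5 to E14.5, 13 of 22 were lower with a median of -0.08, and over the whole span 12 of 22 with a median of -0.26 (16 of 22 and -0.43 under normexp). Over all genes detected on all arrays, 51% were lower in the first of these comparisons and 52% in the second. From E14.5 to E15.5 the median was 0.08, which became -0.06 with arrays scaled to their medians, a scaling that moved the median of all genes from 0.01 to -0.14. Over the span, 5 of 6 Hoxa genes and 1 of 5 Hoxd genes were lower on the probes used, and a test between clusters was not made. The Hoxa gene that was not lower is Hoxa4, whose 2 probes differ in sign. Hoxa3 is counted at -1.13, while its second probe, detected on 2 arrays, read 1.3. Hoxd9 is counted at 0.09, while its second probe read -0.82.

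Hox proteins bind DNA together with TALE homeodomain partners of the Pbx, Meis and Pknox families. All 9 of these genes were detected on all arrays. Over the span 1 of 9 rose and 0 fell, beside 17.6% and 17.4% of all genes. Pknox1 rose by 0.93 ± 0.22 from E13.5 to E14.5 (adjusted p = 0.0432) and by 0.81 ± 0.22 over the span (adjusted p = 0.0316). Their summed signal, in units of the array's 75th percentile, was 18.8 to 21.2 at E12.5 and 26.0 to 27.0 at E15.5.

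Polycomb proteins keep Hox genes silent and Trithorax proteins keep them active. Of 16 tested of 17 Polycomb genes, 2 rose over the span and 2 fell, beside 17.6% and 17.4% of all genes, so the list's share was not above the background. Eed, a core subunit of the complex that methylates histone H3, rose by 1.94 ± 0.37 (adjusted p = 0.00926) and Cbx8, a chromodomain subunit, by 1.69 ± 0.34 (adjusted p = 0.0112), whereas Cbx2, whose loss causes sex reversal, fell by 0.92 ± 0.20 (adjusted p = 0.013) and Bmi1 by 0.89 ± 0.18 (adjusted p = 0.0107). Eed was the only one of the 16 called from E13.5 to E14.5, at 1.75 ± 0.37 (adjusted p = 0.0325), beside 12.5% of all genes. From E12.5 to E13.5, 0 of the 16 were called, beside 3.98%.

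Of 8 tested of 9 Trithorax group genes, 1 rose over the span and 2 fell, which is near the 17.6% and 17.4% of all genes. Wdr5, a subunit shared by histone H3 methyltransferases, rose by 0.88 ± 0.19 (adjusted p = 0.0141), and Dpy30, another such subunit, fell by 1.14 ± 0.24 (adjusted p = 0.0126), as did the demethylase Kdm6a, by 1.06 ± 0.21 (adjusted p = 0.0101). None was called between neighbouring stages, where 3.98%, 12.5% and 0.655% of all genes were called, so few or no calls among 8 genes is not unusual.

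Retinoic acid and Cdx factors act upstream of Hox genes, and 7 of 12 genes of that list were tested, all of them for enzymes or receptors of retinoic acid; over the span 1 rose and 1 fell, beside 17.6% and 17.4% of all genes. Cyp26b1, which breaks down retinoic acid in the fetal testis, fell by 1.28 ± 0.17 from E13.5 to E14.5 (adjusted p = 0.0122) and by 1.78 ± 0.17 over the span (adjusted p = 0.000788). Aldh1a3, which makes retinoic acid, rose by 1.46 ± 0.32 over the span (adjusted p = 0.0148). The other 5 tested were not called between any stages compared.

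Of 10 tested of 11 genes that flank the clusters, 3 rose and 1 fell over the span, beside 17.6% and 17.4% of all genes. Evx1, a homeobox gene at the posterior end of the Hoxa cluster, read -4.56 and -4.62 at E12.5 and -7.22 and -7.03 at E15.5, was detected at E12.5 only, and fell by 2.54 ± 0.19 (adjusted p = 3e-04, at least 2.02-fold lower). It had already fallen by 2.07 ± 0.19 at E13.5 (adjusted p = 0.00386, at least 2.5-fold lower), within slides.

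Skap1, beside the anterior end of the Hoxb cluster, rose by 4.70 ± 0.24 over the span (adjusted p = 0.000124). Skap2, beside the anterior end of the Hoxa cluster, rose by 0.98 ± 0.21 (adjusted p = 0.0129), and Ttll6, beside the posterior end of the Hoxb cluster, by 1.29 ± 0.41 (adjusted p = 0.0489). Lnpk, beyond Evx2 at the posterior end of the Hoxd cluster, rose by 1.19 ± 0.30 from E13.5 to E14.5 (adjusted p = 0.0489).

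Markers of cell types were read over the same stages, beside 17.6% of all genes that rose over the span and 17.4% that fell. Not every list moved beyond these shares. A summed signal mostly follows the brightest probes of its list. Of 12 genes of the mesonephric duct and tubules, 6 fell over the span and 1 rose, and 0 were undetected on every array; their summed signal, in units of the array's 75th percentile, was 6.20 to 6.27 at E12.5, 3.67 to 4.51 at E13.5, 3.09 to 3.32 at E14.5 and 2.70 to 3.33 at E15.5. Most of the fall in that sum was Lhx1, a duct transcription factor, which fell by 5.65 ± 0.18 over the span (adjusted p = 4.52e-05). Emx2 and Wnt4, which also weigh in the sum, were not called over the span (adjusted p = 0.226 and 0.84). That sum thus does not describe the whole list. Of 7 metanephric kidney genes, Six2 and Ret were detected on no array and the other 5 on all 8. Over the span 1 of the 5 fell, Foxd1, by 2.43 ± 0.43 (adjusted p = 0.00689), and 0 rose. Their sum was 6.81 to 7.63 at E12.5, 12.9 to 12.9 at E13.5, 9.39 to 10.2 at E14.5 and 9.22 to 9.74 at E15.5. Most of that sum was Cited1, which rose by 1.15 ± 0.19 from E12.5 to E13.5 (adjusted p = 0.0295). The other 4 tested were not called in that step, so the sum does not describe the list as a whole.

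Of 10 interstitial genes, 4 rose over the span and 0 fell, beside 17.6% and 17.4% of all genes. Their sum was 111 to 125 at E12.5, 147 to 151 at E13.5, 206 to 215 at E14.5 and 250 to 277 at E15.5. Of 6 Leydig cell genes, 6 rose from E12.5 to E13.5, beside 2.68% of all genes. Their sum was 23.7 to 30.8 at E12.5, 101 to 130 at E13.5, 111 to 140 at E14.5 and 134 to 159 at E15.5. Of 8 germ cell genes, 5 fell and 2 rose over the span, beside 17.4% and 17.6% of all genes. From E12.5 to E13.5, 4 of the 8 rose and 0 fell, beside 2.68% and 1.3%. Their sum was 71.3 to 76.1 at E12.5, 124 to 128 at E13.5, 83.9 to 106 at E14.5 and 69.2 to 85.5 at E15.5. Of 8 Sertoli cell genes, 1 rose and 1 fell over the span, not above the shares of all genes. Their sum was 159 to 171 at E12.5, 189 to 195 at E13.5, 153 to 166 at E14.5 and 129 to 129 at E15.5.

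Signal of nerve and neural crest genes summed to 0.862 to 1 at E12.5 and 2.31 to 2.33 at E15.5. Over the span 1 of 5 tested was higher, near the 17.6% of all genes. Skeletal muscle genes summed to 0.150 to 0.353 and 0.822 to 0.836, with 2 of 4 tested higher beside the same share. Of 6 tested red cell genes, 5 fell over the span, beside 17.4% of all genes, and 1 rose, Alas2. The embryonic globins Hba-x, Hbb-y and Hbb-bh1 were among those that fell. The sum of the red cell genes was 137 to 156 at E12.5 and 7.85 to 10.6 at E15.5. The part of these cell types in the changes of Hoxd1, Hoxd4, Hoxa6 and the other called Hox genes was not tested.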

How the data were processed

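RNA of whole male gonads at 4 stages was read on 8 one-colour arrays. The deposited scanner files give the intensity of each spot on a linear scale, already background-subtracted and without scaling between arrays, per the file headers, which name Agilent Feature Extraction 9.1.3.1 for E12.5 and E13.5 and 9.5.3.1 for E14.5 and E15.5; the submitters' processing notes name 9.5. The authors also deposited a table with 1 column per stage, a linear ratio to a centre over the series, with column medians of 1.14, 1, 0.898 and 0.859; its centring and scale stay unknown and it was used only as a check of direction. Its columns correlated with centred scanner values across probes at 0.984 to 0.99, and every called Hox change (1, 5 and 7 in the comparisons with calls) had the same direction there.

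From 45018 spots per array, 43379 were not controls and gave 41174 probes, of which 22951 (55.7%) had 1 gene symbol, 0 several and 18223 none. Log2 signals, scaled by the 75th percentile of each array, were fitted with limma 3.58.1 in R 4.3.3 (residual degrees of freedom 4, prior 2.57), after keeping 28188 probes detected on both arrays of a stage and the highest-mean probe per gene name, 21986 names in all. The script was tested on simulated data for E13.5 against E12.5, with 100 genes changed. It called 2% of changes of log2 size 1 and 42% of those of size 2, with 6 false calls. A gene that was not called may therefore still have changed. The number of arrays limits the precision, and nothing beyond the word duplicates says which steps were separate, so the spread may be partly technical.

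Hox genes were named by symbol, by detection class and, where called, by their values on every array; of the other lists, the called genes, at most 4 per list and comparison, were named. These members and lists were chosen with earlier results of these data known. Values of some genes that enter the counts and sums are not reported here. Alternatives changed the scaling, background, filter, probe, slide block and arrays used. Arrays with the same number share a slide for E12.5 and E13.5 (deviations from the stage means correlate at 0.65); for E14.5 and E15.5 all lie on slide 3 (-0.59). Promoter sequences are from RefSeq (GRCm38.p6); the arrays' design used an older build, so only names were matched.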

Additional observations from a re-analysis of the deposited data

How the results depend on the processing

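With 2 arrays per stage the spread rests on few values, and spots near background set the size of the Hoxd1, Hoxa6 and Hoxb13 changes. Of the alternatives, the planned normexp on mean signals was not run, since the files used here hold median signals, which were used in its place after seeing the files; the other probe and the crossed pairing were also chosen after seeing the data. Both falls of Hoxd4 (9 settings) and the changes of Hoxd1 and Hoxa6 over the span (8 settings, as they are not among the probes detected on all arrays) were called in each setting that held them; the cause of the changes below was not tested.

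Hox genes called from E12.5 to E13.5 numbered 2 with the percentile over detected probes, 0 with normexp, 0 with probes detected on all arrays (which leaves out Hoxd1), 2 with the slide as a replicate block, 2 with it as a random block (correlation 0.08) and 0 with only the arrays compared, against 1. From E13.5 to E14.5 they numbered 3 with arrays scaled to their medians, 2 without a filter and 2 with only the arrays compared, against 5, and 1 to 4 with 1 array left out. Leaving out 1 array gave 1 to 1 from E12.5 to E13.5, 0 to 0 from E14.5 to E15.5, 4 to 8 over the span and 4 to 8 over all stages, where normexp gave 11. The Hox genes detected on all arrays numbered 29 with the scanner's positive and significant flag in place of the flag for well above background.

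All genes called from E12.5 to E13.5 numbered 554 with normexp, 419 without a filter, 139 with only the arrays compared and 188 to 695 with 1 array left out, against 874. From E13.5 to E14.5 the numbers were 872 without a filter, 779 with only the arrays compared and 220 to 2091 with 1 array left out, against 2745. From E14.5 to E15.5 they were 235 with normexp, 22 with probes detected on all arrays, 226 with the slide as a replicate block, 0 with only the arrays compared, 1062 with crossed numbers and 0 to 78 with 1 array left out, against 144; 0 Hox genes were called under either block. With 1 array left out, 3492 to 7934 were called over the span against 7703, and 3591 to 6715 over all stages against 6827. The sign turned for Hoxa4 on its other probe (-1.86) and the mean of its probes (-0.36). The other probe of Hoxc10 read -0.47, with neither stage compared above background, so it carries no sign.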

Other observations

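Evx2, the homeobox gene beside the posterior end of the Hoxd cluster, read -2.38 on slide 1 and 7.27 on slide 2 at E12.5, and -2.78 on slide 1 and 4.39 on slide 2 at E13.5. On slide 3 it read -5.32 and -4.98 at E14.5, and -5.28 and -5.72 at E15.5. Both slide 2 arrays thus stood far above the slide 1 arrays of the same stages, and no comparison called it.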
